A study of Homo sapiens with 21 samples.

Results

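The comparison described here set the 3 libraries labelled resistant 1 of sequencing batch 2 against the 3 vehicle libraries of the same batch, which are 6 of the 21 libraries of the series. Libraries were chosen by their labels and batch alone, and 15218 of the 28008 genes in the count tables passed the low-count filter and were tested. The series measured polyadenylated RNA in human leukemia cell lines, under a title that names stapled oncolytic peptides, membrane cholesterol and inflammatory signaling. Vehicle libraries are labelled as the OCI-AML3 line, myeloid cell type, genotype WT and treatment DMSO, the solvent. Resistant 1 libraries carry the same line and cell type, genotype Res and treatment StAMP, an abbreviation that the labels do not spell out, and are marked as the first biological replicate of resistance. A second biological replicate of resistance (resistant 2) was sequenced in the same batch. Batch 1 held vehicle and resistant 1 libraries of the same names, untreated OCI-AML3 parental cells and untreated K562 parental cells, the latter labelled erythroleukemia, with 3 libraries in each group. The means of selecting resistance, its length and dose, and whether a resistant group is 1 clone were not given in any source used here. No label says that the numbered libraries of a group are separate cultures, and p-values then cover only the spread between these libraries, which may be technical.

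Antimicrobial peptides that lyse cells act on the plasma membrane, where surface charge from phosphatidylserine, sialic acid and proteoglycans, the packing of cholesterol and sphingolipids, and repair by annexins and ESCRT proteins all bear on whether a cell survives an attack. OCI-AML3 is a line from an acute myeloid leukemia with a myelomonocytic character, which in blood cells goes with the transcription factors PU.1 and C/EBPα and with HOXA genes. K562 is a line from a chronic myeloid leukemia in blast crisis that carries the BCR::ABL1 fusion kinase, signals through STAT5, expresses red cell genes under GATA1 and is known for a very low level of HLA class I.

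The label was first checked against the data. Libraries labelled resistant 1 resembled K562 more than OCI-AML3: over 10767 genes, their Pearson correlations of log2 CPM (a gene's count scaled to its library's size, with factors from the trimmed mean of M values, TMM) were 0.910 to 0.940 with K562 libraries and 0.479 to 0.509 with OCI-AML3 parental libraries. Vehicle libraries showed the reverse, 0.519 to 0.545 with K562 and 0.925 to 0.945 with OCI-AML3 parental, and 0.547 to 0.570 with resistant 1 libraries of their own batch. Within groups the correlations were 0.989 to 0.995 for resistant 1 and 0.994 to 0.996 for vehicle. Correlations are across genes, which are not independent replicates, and those with the parental lines cross the batches. The myeloid label was set beside lists of myeloid markers, most of which were lower in resistant 1. Of the monocyte surface list 24 of 28 tested members fell and 3 rose, and of the neutrophil granule list 11 of 13 fell and 1 rose. Over all genes tested 35.8% fell and 39.9% rose. Among the members that fell, CTSG, ELANE and LILRB4 had 0 counts in resistant 1 libraries. CD4 stood at 0.147 ± 0.163 CPM there (SD, n = 3) against 329.6 ± 16.9 CPM in vehicle. Resistant 1 is therefore used here as the name on the label, and every direction below is that of libraries labelled resistant 1 against libraries labelled vehicle. Which cells these libraries were made from was not tested. The gene-level counts used here do not tell a change within OCI-AML3 cells from the presence of another line.

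Total counts per library were 36143114 to 51262668 in vehicle and 30719771 to 49618405 in resistant 1 libraries, in both groups highest in number 1 and lowest in number 3. The biological coefficient of variation was 0.149 over the 9 libraries of batch 2 and 0.047 over the 9 OCI-AML3 libraries of batch 1. Libraries with the same number in different groups tended to deviate together, and those numbered 2 stood apart for several stress-responsive genes described below. Without the libraries numbered 2, a setting chosen after seeing the data, 6158 genes rose and 5570 fell.

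Of the 15218 genes tested, 6079 were higher in resistant 1 (39.9%) and 5442 were lower (35.8%), so that 11521 passed in either direction (75.7%) at an adjusted p under 0.05 in edgeR's quasi-likelihood test with Benjamini-Hochberg adjustment. A test against a 2-fold change called 3500 genes higher (23%) and 2615 lower (17.2%). The 3 libraries of one group all lay above or all below the other 3 for 12106 genes (79.6%). The median log2 fold change over all genes tested was 0.07, and 0.26 when libraries were scaled by their totals alone, where the share of calls that were higher went from 52.8% to 60.4%. These shares are the background for the counts of gene groups that follow. Among the 3697 genes not called, 1717 had a 95% interval of the log2 fold change within 0.5 of 0 on both sides, and the other 1980 were not resolved at this spread.

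**Figure D1:**
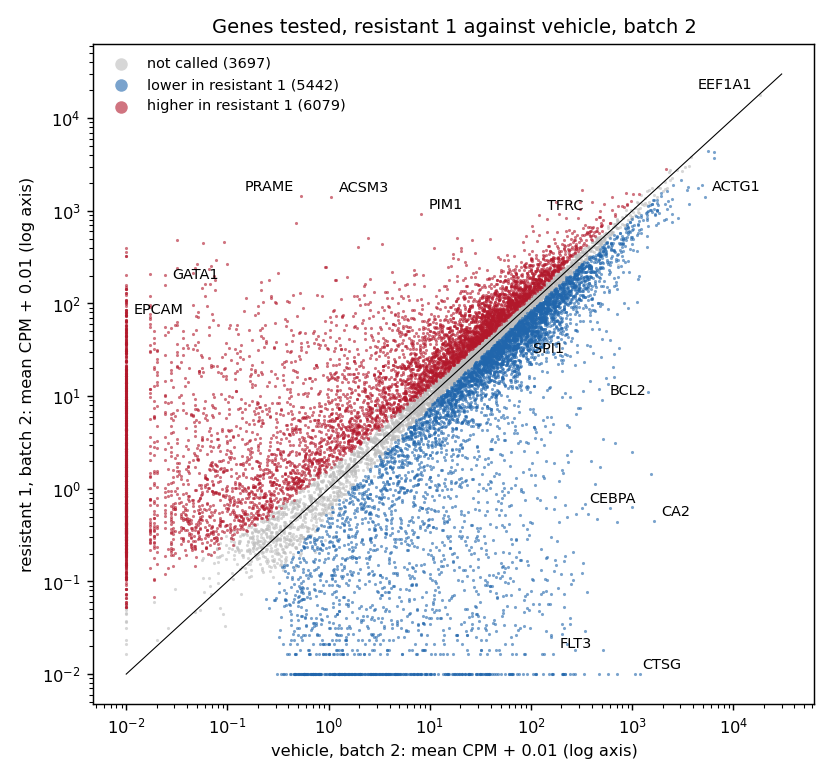
Mean CPM of each tested gene in the 3 vehicle libraries (x axis) and in the 3 resistant 1 libraries (y axis) of batch 2, both on a log scale after adding 0.01 CPM; colours mark genes called higher or lower at an adjusted p under 0.05. Genes along the left and lower edges were at or near 0 in 1 group, such as PRAME (vehicle mean 0.521 CPM) and CA2 (resistant 1 mean 0.438 CPM).

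Genes silent in one group and expressed in the other were found in both directions. In vehicle libraries 525 genes had 0 counts while resistant 1 libraries averaged at least 1 CPM, 180 of them at least 10 CPM. The reverse held for 270 genes, 100 of them at 10 CPM or more in vehicle. For such genes the fold is a bound, set against 3 counts over the 3 libraries of the silent group; intervals for genes with 1 to 3 counts in a group are exact at 95% and cover counting error only.

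Most red cell transcription factors were higher in resistant 1. GATA1, the master regulator of the red cell lineage at chrX:48786540-48794311 (GRCh38), was measured at 0.043, 0 and 0 CPM in the vehicle libraries and 161, 155 and 165 CPM in the resistant 1 libraries. Every resistant 1 library lay far above every vehicle library, and the 2 counts in vehicle against 19441 in resistant 1 give a ratio of 9307-fold (counting interval 2576 to 76850); edgeR's adjusted p was 2.79e-14. TAL1, its partner in red cell and stem cell complexes, had 8.18, 7.13 and 7.29 CPM in the vehicle libraries and 119.8, 102 and 104 CPM in the resistant 1 libraries, with no overlap, a log2 fold change of 3.85 (SE 0.13) and an adjusted p of 1.38e-12. GFI1B, a repressor protein that acts within the red cell and megakaryocyte lineages, had 0 counts in vehicle and 55.1 ± 6.73 CPM in resistant 1, at least 2174-fold higher. KLF1, the activator of adult globin genes, rose from 0.0599 ± 0.00607 to 77.5 ± 12.9 CPM (SD, n = 3), and NFE2, which binds the globin control region, rose from 2.25 ± 0.997 to 122 ± 5.45 CPM. Members of this list did not all move one way. LMO2, the bridging protein of the TAL1 complex, was at 208, 195 and 201 CPM in the vehicle libraries and 56.1, 87.5 and 66.7 CPM in the resistant 1 libraries. All 3 vehicle libraries were higher, and LMO2 fell by 1.52 on the log2 scale, with an SE of 0.17 and an adjusted p of 1.08e-06. MYB, needed by early progenitors, was at 417, 457 and 486 CPM in vehicle and 471, 371 and 500.2 CPM in resistant 1 libraries; the groups overlapped and the 95% interval of its log2 fold change was -0.29 to 0.25. RUNX1 had a log2 fold change of 0.43 with an adjusted p of 0.0544, and was called without number 2 and under DESeq2. Of the erythroid transcription factor list, 11 of its 17 tested members rose and 4 fell, with a median log2 fold change of 1.83. In each library compared here fewer cells of a type and less RNA per cell cannot be told apart.

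Genes of heme synthesis and the embryonic globins followed. ALAS2, the red cell form of the first and rate-limiting enzyme of heme synthesis at chrX:55009055-55030977, had 0 counts in vehicle and 33.9, 29.5 and 32.1 CPM in resistant 1 libraries, at least 1242-fold higher. The embryonic globin HBE1 had 1 count in vehicle and 206 ± 3.07 CPM in resistant 1, a ratio of 23940-fold (counting interval 4297 to 945800). HBZ, the embryonic alpha-like globin, had 0 counts in vehicle against 11.7 ± 4.93 CPM, at least 464-fold higher; reads of the near-identical HBA1 and HBA2 and of HBG1 and HBG2 may be split by the authors' counting. Among enzymes present in both groups, UROD rose from 22.2 ± 1.55 to 189 ± 18.3 CPM, while ALAD, the second enzyme of the path, fell from 78.5 ± 5.38 to 22.5 ± 2.35 CPM. Over the globin and heme list, 15 of its 22 tested members rose and 5 fell, with a median log2 fold change of 2.31. The list's summed level was 794 to 819 CPM in vehicle and 1741 to 1926 CPM in resistant 1 libraries, against 4615 to 4795 CPM in K562 libraries of batch 1.

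Genes of the red cell membrane and its skeleton were nearly all higher. SLC4A1, the band 3 anion exchanger, had 0 counts in vehicle and 11.4 ± 3.15 CPM in resistant 1, at least 459-fold higher. SPTB, beta spectrin at chr14:64746283-64879907, was at 4.499, 5.91 and 2.58 CPM in the vehicle libraries and 63.7, 63.4 and 54.2 CPM in the resistant 1 libraries. Its groups stood well apart, with a log2 fold change of 3.79 (SE 0.25). Ankyrin (ANK1), which ties spectrin to band 3, rose from 0.0552 ± 0.0479 to 235 ± 6.24 CPM; protein 4.1 (EPB41) rose from 103 ± 1.39 to 693 ± 100.4 CPM; glycophorin C (GYPC) rose from 34.3 ± 5.17 to 158 ± 18.4 CPM; and XK, the Kell-linked membrane protein, rose from 3.86 ± 1.05 to 93.8 ± 18.99 CPM. GYPE, which shares reads with near copies and so is uncertain, rose from 6.03 ± 0.639 to 55.4 ± 9.84 CPM. Of the red cell membrane list, 25 of its 27 tested members rose and 2 fell, with a median log2 fold change of 5.18. One of the members that fell was CD36, a fatty acid and thrombospondin receptor found on monocytes, platelets and red cell precursors, which was at 131, 123 and 103 CPM in the vehicle libraries and 0.039, 0.075 and 0 CPM in the resistant 1 libraries. It was near 0 in every resistant 1 library (log2 fold change -11.41, SE 0.29). The transferrin receptors TFRC (from 121 ± 29.2 to 897 ± 256 CPM) and TFR2 (from 11.1 ± 0.853 to 67.4 ± 12.02 CPM) and the erythropoietin receptor EPOR (from 5.65 ± 1.096 to 12.4 ± 2.59 CPM) also rose.

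Megakaryocyte genes, which share GATA1 control with red cells, moved in both directions. ITGA2B, the platelet fibrinogen receptor chain, was at 0.215, 0.822 and 0.496 CPM in the vehicle libraries and 132, 127 and 129 CPM in the resistant 1 libraries. Resistant 1 libraries were all higher, at 8.02 on the log2 scale (SE 0.25). GATA2 rose from 3.58 ± 1.198 to 135 ± 13.3 CPM, the thrombin receptor F2R from 1.82 ± 0.287 to 56.9 ± 4.79 CPM, and TUBB1, the platelet tubulin, went from 0 counts to 15.7 ± 1.59 CPM, at least 603-fold. FLI1, the ETS factor of platelet genes, fell from 176 ± 8.06 to 0.139 ± 0.0639 CPM, and pleckstrin (PLEK), a protein kinase C substrate of platelets and myeloid cells, fell from 707 ± 51.7 to 0.4299 ± 0.1701 CPM. Of the megakaryocyte list, 10 of its 14 tested members rose and 4 fell, with a median log2 fold change of 4.03. The list's summed level nonetheless fell, from 1046 to 1165 CPM in vehicle to 714.8 to 786.2 CPM in resistant 1 libraries.

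Upstream sequence is shown for ALAS2, TAL1 and SPTB, which rose together with GATA1, whose protein binds DNA at AGATAA and close variants. They were picked among abundant red cell list members higher past 2-fold because the sequence before their starts held AGATAA on either strand. A match in each was therefore certain, and members without a match are not shown. The 150 bases before each annotated start are RefSeq sequence on GRCh38.p14, 5′ to 3′ on the gene's strand, here the minus strand for all 3: chrX:55030978-55031127 for ALAS2, chr1:47232336-47232485 for TAL1 and chr14:64879908-64880057 for SPTB. Capitals mark AGATAA or its reverse complement TTATCT.
ALAS2: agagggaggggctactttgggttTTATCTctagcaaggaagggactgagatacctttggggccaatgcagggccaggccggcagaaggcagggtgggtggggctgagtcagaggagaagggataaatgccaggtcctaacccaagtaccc
TAL1: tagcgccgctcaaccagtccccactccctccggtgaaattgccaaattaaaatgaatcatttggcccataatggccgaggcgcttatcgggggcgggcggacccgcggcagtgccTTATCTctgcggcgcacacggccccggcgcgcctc
SPTB: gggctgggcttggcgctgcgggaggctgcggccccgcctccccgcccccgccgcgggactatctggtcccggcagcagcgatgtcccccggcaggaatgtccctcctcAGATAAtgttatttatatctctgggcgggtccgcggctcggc
The match lay at position -127 from the start in ALAS2, -35 in TAL1 and -42 in SPTB. AGATAA on either strand was found in 1424 of 27195 windows of this length over all promoters in the table (5.24%), in 230 of the 11046 windows of genes tested (2.08%), in 91 of 2340 for genes higher past 2-fold (3.89%) and in 8 of the 28 windows of red cell list members higher past 2-fold (28.6%). A match is a description of these letters and no evidence of binding.

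**Figure D2:**
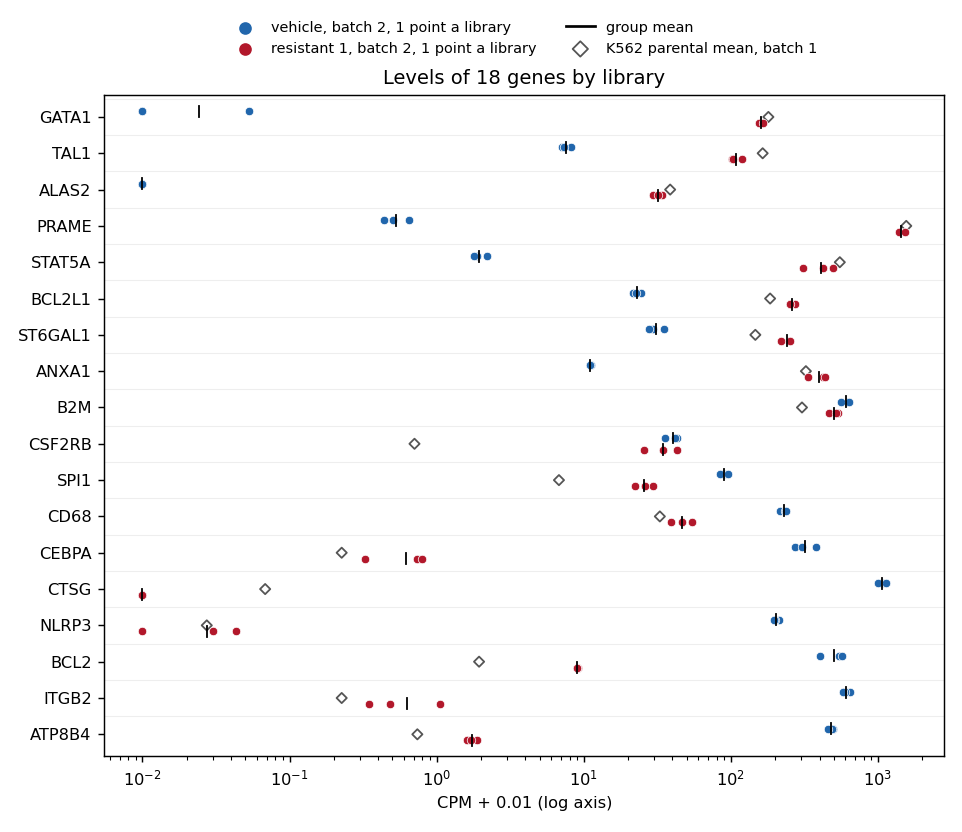
CPM plus 0.01 of 18 genes (x axis, log scale) in each vehicle and resistant 1 library of batch 2, 1 point a library, with a bar at the group mean and an open diamond at the K562 parental mean of batch 1. GATA1, TAL1, ALAS2 and BCL2L1 were higher in all 3 resistant 1 libraries than in any vehicle library, and CEBPA, CTSG and BCL2 were lower in all 3.

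Myeloid transcription factors were lower in resistant 1. CEBPA, the factor that commits progenitors to granulocytes and monocytes, was at 377, 274 and 305 CPM in the vehicle libraries and 0.315, 0.724 and 0.782 CPM in the resistant 1 libraries. All 3 resistant 1 libraries were under 1 CPM, -9.10 on the log2 scale with an SE of 0.26 and an adjusted p of 4.65e-13. SPI1, the gene of PU.1, was lowered but kept: 89.7, 83.8 and 95.5 CPM in the vehicle libraries and 29.3, 22.1 and 25.9 CPM in the resistant 1 libraries, with no overlap and a log2 fold change of -1.80 (SE 0.18). GFI1, a repressor protein that acts within the granulocyte lineage, fell from 135 ± 8.98 to 2.96 ± 0.873 CPM. ZEB2 fell from 563 ± 128 to 149.8 ± 18.9 CPM and IKZF1, a lymphoid and myeloid regulator, from 328 ± 64.9 to 157 ± 6.26 CPM. IRF5, an interferon-regulatory factor of monocytes, had 3728 counts in vehicle and 1 in resistant 1, a ratio of 3894-fold (counting interval 698 to 153800). No member of the myeloid transcription factor list rose: 0 of its 24 tested members rose and 18 fell, with a median log2 fold change of -2.48. Without the libraries numbered 2 the same list had 1 higher and 17 lower.

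Genes of myeloid granules and surface receptors were lower as well. CTSG, the granule protease cathepsin G at chr14:24573518-24576250, was at 1069, 1140.3 and 1004 CPM in vehicle libraries, whereas all 3 resistant 1 libraries held 0 counts of it, at least 43520-fold lower. Neutrophil elastase (ELANE) also had 0 counts there, against 72.8 ± 13.9 CPM in vehicle, at least 2996-fold lower. PRTN3, proteinase 3, fell from 31.4 ± 8.53 to 0.368 ± 0.287 CPM, and AZU1, azurocidin, from 83.6 ± 7.38 to 0.393 ± 0.0682 CPM. Lysozyme (LYZ) was at 285, 269 and 263 CPM in the vehicle libraries and 128, 114 and 117 CPM in the resistant 1 libraries; both groups expressed it, and vehicle libraries were all higher, by 1.19 on the log2 scale (SE 0.10). SERPINB1, an elastase inhibitor, was the neutrophil list's member without a call (log2 fold change 0.28, adjusted p 0.103, and 0.0434 with the replicate number as a block). Of the neutrophil granule list, 1 of its 13 tested members rose and 11 fell, with a median log2 fold change of -6.50, and of the monocyte surface list, 3 of its 28 tested members rose and 24 fell, with a median log2 fold change of -5.60. Among surface genes, CCR1, a chemokine receptor, had 31580 counts in vehicle and 1 in resistant 1, a ratio of 32980-fold (counting interval 5920 to 1303000), the inhibitory receptor LILRB4 11889 and 0, and the G-CSF receptor CSF3R fell from 45.6 ± 2.45 to 1.46 ± 0.689 CPM. CD68 fell from 229 ± 12.6 to 46.5 ± 7.63 CPM.

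Some myeloid genes went the other way or held. FCGR2A, a low-affinity antibody receptor, was at 93.6, 105 and 104 CPM in the vehicle libraries and 226, 222 and 258 CPM in the resistant 1 libraries, higher in each resistant 1 library (1.22 on the log2 scale, SE 0.12). ITGAM, the CD11b integrin chain, rose from 2.84 ± 0.824 to 15.6 ± 3.71 CPM, although its partner chain ITGB2 fell from 608 ± 35.3 to 0.617 ± 0.375 CPM. CSF2RB, the shared signalling chain of the GM-CSF, IL-3 and IL-5 receptors, was at 43.2, 35.6 and 41.9 CPM in the vehicle libraries and 34.3, 25.7 and 42.8 CPM in the resistant 1 libraries. The groups overlapped, and its 95% interval was -0.66 to 0.19. Of the NADPH oxidase, the enzyme of the oxidative burst, the catalytic chain CYBB fell from 684 ± 68.2 to 3.08 ± 0.535 CPM, and the cytosolic activators NCF1 and NCF4 fell from 57.1 ± 14.6 to 0.0611 ± 0.0591 CPM and from 156 ± 36.9 to 5.96 ± 0.344 CPM. RAC1 (0.05, 95% interval -0.17 to 0.27) was not called. Over the oxidase list, 1 of its 9 tested members rose and 6 fell, with a median log2 fold change of -1.12.

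Promoters of 2 genes that fell, CTSG and PRTN3, are shown. Both went down with SPI1, whose protein binds ETS cores of the kind GAGGAA. They were picked among abundant myeloid list members lower past 2-fold because their windows held this core on either strand, with the same genes and windows left out. A match in each was therefore certain, and members without a match, and some with one, are not shown. Windows of 150 bases are at chr14:24576251-24576400 on the minus strand for CTSG and at chr19:840849-840998 on the plus strand for PRTN3, RefSeq sequence on GRCh38.p14, with GAGGAA or its reverse complement TTCCTC in capitals.
CTSG: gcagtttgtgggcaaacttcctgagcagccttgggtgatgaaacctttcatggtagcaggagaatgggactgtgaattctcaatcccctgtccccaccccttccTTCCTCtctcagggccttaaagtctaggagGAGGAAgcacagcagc
PRTN3: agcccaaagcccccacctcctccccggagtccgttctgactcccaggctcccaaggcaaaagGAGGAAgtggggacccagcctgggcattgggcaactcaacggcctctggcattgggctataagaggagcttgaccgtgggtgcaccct
Matches lay at -46 and -16 in CTSG and at -88 in PRTN3. GAGGAA was found in 3991 of 27195 windows over all promoters (14.7%), in 1586 of 11046 windows of genes tested (14.4%), in 329 of 1855 for genes lower past 2-fold (17.7%) and in 11 of the 35 windows of myeloid list members lower past 2-fold (31.4%). The red cell windows held it in 8 of 28 cases (28.6%).

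HOX genes moved in both directions. The distal HOXA genes, which keep acute myeloid leukemia cells with mutant NPM1 in a progenitor state, were silent: HOXA13 was at 190.2, 216 and 209 CPM in vehicle and HOXA11 at 53.7, 40.2 and 41.4 CPM, and both had 0 counts in every resistant 1 library, at least 8264-fold and 1861-fold lower. HOXB9 was at 17.6, 12.3 and 15.9 CPM in the vehicle libraries and 256, 236 and 245 CPM in the resistant 1 libraries, higher in each resistant 1 library by 4.01 on the log2 scale (SE 0.17). The cofactors MEIS1 and PBX3 fell from 40.1 ± 3.52 to 9.75 ± 1.05 CPM and from 29.6 ± 0.658 to 2.09 ± 0.107 CPM, and MEIS2 rose from 1.41 ± 0.111 to 52.3 ± 3.15 CPM. Of the HOX, MEIS and PBX list, 9 of its 25 tested members rose and 13 fell, with a median log2 fold change of -2.04, and its summed level overlapped between groups, 771 to 791 CPM in vehicle and 744 to 801 CPM in resistant 1.

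Classical HLA class I genes fell, while several of their loading proteins rose. HLA-B fell from 219 ± 26.9 to 0.662 ± 0.216 CPM and HLA-C from 108 ± 10.4 to 3.53 ± 1.65 CPM; reads of HLA genes depend on the alleles in the reference. HLA-E, a ligand of natural killer cell receptors, fell from 485 ± 54.7 to 101 ± 18.8 CPM. B2M, the light chain of all these proteins, was at 619, 561 and 635 CPM in the vehicle libraries and 534, 463 and 520.1 CPM in the resistant 1 libraries: vehicle libraries were slightly higher, with a log2 fold change of -0.26 (adjusted p 0.0338, and 0.52 when libraries were scaled by their totals alone). NLRC5, the activator of class I genes, had 2119 counts in vehicle and 2 in resistant 1, a ratio of 1107-fold (counting interval 306 to 9144), and PSMB8, an immunoproteasome chain, fell from 73.3 ± 3.06 to 3.96 ± 0.898 CPM. The trimming enzyme ERAP1 rose from 55.7 ± 4.12 to 177 ± 29.6 CPM, and the loading proteins TAPBP, PDIA3 and CALR rose by 0.43, 0.54 and 0.30 on the log2 scale. The calls for CALR and B2M were weak. That for CALR was lost in 4 of the fits that left out 1 library (adjusted p up to 0.108), and that for B2M in 6 of 18 alternative fits. Over the class I list, 4 of its 19 tested members rose and 14 fell, with a median log2 fold change of -1.50. Of the class II list, 2 of its 9 tested members rose and 4 fell, with a median log2 fold change of -0.62. CD74, the invariant chain, fell from 77.4 ± 10.2 to 0.516 ± 0.0687 CPM, and CD80, a T cell costimulator, had 0 counts in vehicle and 24.1 ± 6.89 CPM in resistant 1, at least 956-fold higher.

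Genes of inflammatory sensing, to which the series title also refers, included some of the deepest falls. TLR2 had 209, 179.6 and 236 CPM in the vehicle libraries and no count in any resistant 1 library, which makes it at least 8383-fold lower, TLR4 fell from 62.8 ± 4.29 to 0.0621 ± 0.0256 CPM, and IRAK3, a brake on Toll-like signalling, was at 0 counts against 258 ± 18.7 CPM in vehicle. Caspase-1 (CASP1), which cleaves IL-1β and IL-18, fell from 51.7 ± 2.31 to 0.394 ± 0.0946 CPM. IL18 itself was at 8.91, 7.399 and 9.897 CPM in the vehicle libraries and 51.4, 32.2 and 47.3 CPM in the resistant 1 libraries, higher in every resistant 1 library by 2.32 on the log2 scale (SE 0.20). The adaptor MYD88 had a log2 fold change of -0.12 (95% interval -0.37 to 0.13) and was not called. Of the inflammasome and Toll-like receptor list, 11 of its 32 tested members rose and 17 fell, with a median log2 fold change of -0.63. For NF-kB, 8 of its 28 tested members rose and 13 fell, with a median log2 fold change of -0.37: the subunit gene NFKB1 fell from 101 ± 9.36 to 29.04 ± 1.77 CPM, the kinase IKBKB fell from 64.7 ± 5.15 to 28.8 ± 3.601 CPM, RELA was not called (-0.23, -0.54 to 0.08), and the adhesion target ICAM1 rose from 10.9 ± 3.57 to 72.7 ± 15.97 CPM.

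Interferon genes had no common direction. IFITM1, which blocks virus entry at membranes, was at 0.043, 0.159 and 0 CPM in the vehicle libraries and 262, 305 and 315 CPM in the resistant 1 libraries. It was all but silent in vehicle and rose in every resistant 1 library (adjusted p 8.54e-14). The DNA sensor CGAS fell from 28.6 ± 5.41 to 0.0681 ± 0.0304 CPM, its adaptor TMEM173 (STING) from 126 ± 7.44 to 87.2 ± 5.52 CPM, the nucleotide hydrolase SAMHD1 from 379 ± 52.7 to 34.6 ± 1.51 CPM and MX2 from 84.02 ± 3.397 to 0.924 ± 0.111 CPM. Of the interferon list, 11 of its 38 tested members rose and 17 fell, with a median log2 fold change of -0.30.

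**Figure D3:**
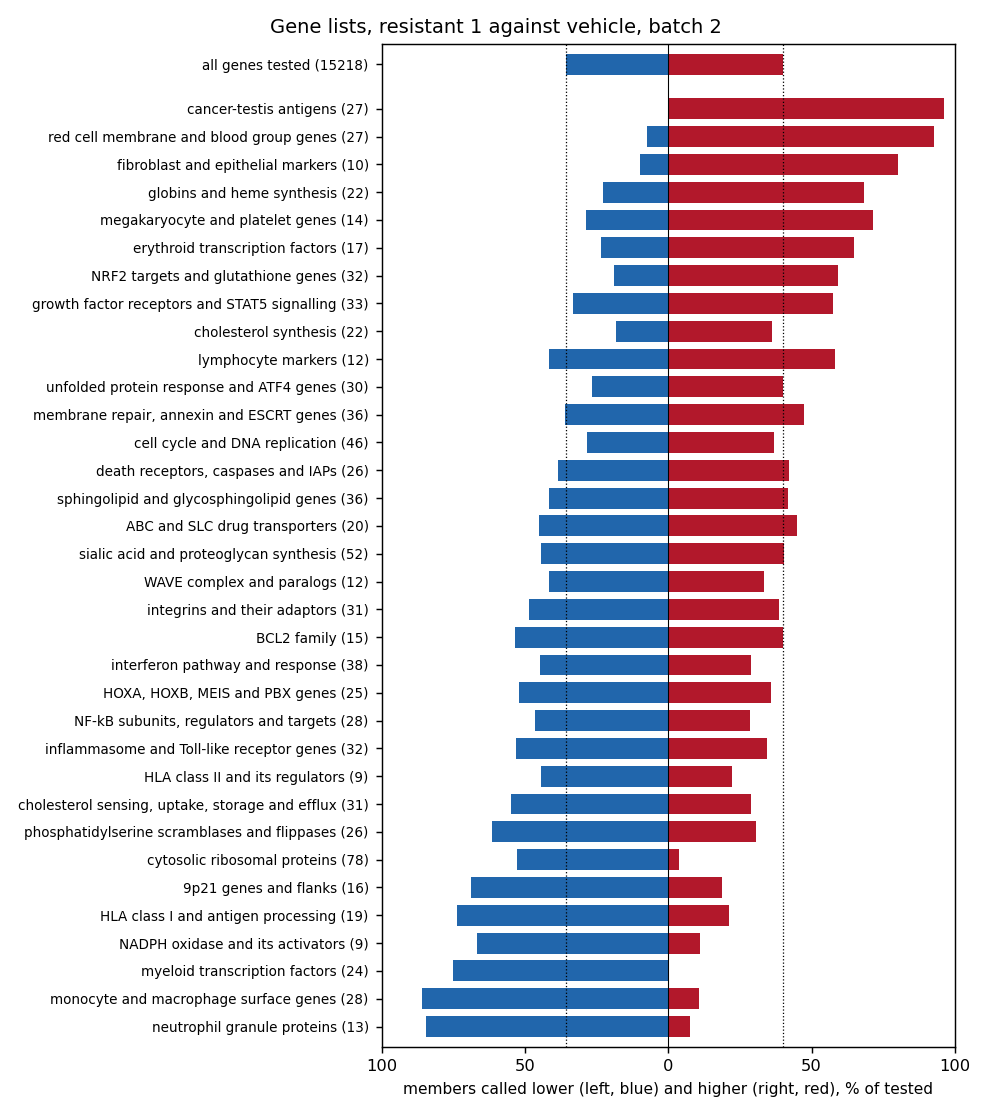
For each gene list, the percent of tested members called higher (right, red) and lower (left, blue) in resistant 1 against vehicle of batch 2 at an adjusted p under 0.05, with the number tested in brackets and dotted lines at the percent over all genes tested. Cancer-testis antigens (26 of 27) and red cell membrane genes (25 of 27) were nearly all higher, myeloid transcription factors (18 of 24) and monocyte genes (24 of 28) mostly lower, and interferon or cholesterol lists were divided.

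Survival genes of the BCL2 family moved in opposite directions. BCL2 was at 401, 541 and 571 CPM in the vehicle libraries and 9.11, 8.92 and 8.96 CPM in the resistant 1 libraries, and its relative BCL2L1, which encodes BCL-XL, at 21.6, 24.5 and 22.5 CPM in the vehicle libraries and 252, 271 and 253 CPM in the resistant 1 libraries. Both shifts were free of overlap and ran in opposite directions, -5.81 for BCL2 (SE 0.18) and 3.50 for BCL2L1 (SE 0.11). MCL1 fell from 677 ± 50.4 to 359.9 ± 78.9 CPM and the killer protein BIM (BCL2L11) fell from 127 ± 8.26 to 35.2 ± 3.46 CPM, while PUMA (BBC3) rose from 7.61 ± 2.62 to 24.2 ± 6.01 CPM. Over the family, 6 of its 15 tested members rose and 8 fell, with a median log2 fold change of -0.49. Among death receptors, TNFRSF1A fell from 105 ± 3.47 to 26.1 ± 4.67 CPM, FAS from 11.8 ± 0.7996 to 1.03 ± 0.253 CPM, and the decoy receptor TNFRSF10D had 4628 counts in vehicle and 1 in resistant 1, a ratio of 4834-fold (counting interval 867 to 191000). CASP6 rose from 3.44 ± 0.289 to 29.9 ± 3.802 CPM, CFLAR, the inhibitor of caspase-8, rose from 74.8 ± 7.01 to 104 ± 16.4 CPM, and RIPK3, the necroptosis kinase, had 329 counts in vehicle and 3 in resistant 1, a ratio of 114-fold (counting interval 38.9 to 558). Of the death receptor, caspase and IAP list, 11 of its 26 tested members rose and 10 fell, with a median log2 fold change of 0.09.

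In the list of growth factor receptors and STAT5 signalling, 19 of its 33 tested members rose and 11 fell, with a median log2 fold change of 1.46. STAT5A was at 1.87, 1.78 and 2.17 CPM in the vehicle libraries and 311, 425 and 497 CPM in the resistant 1 libraries, a log2 fold change of 7.73 (SE 0.30) with no overlap. STAT5B rose from 67.4 ± 2.43 to 325 ± 42.5 CPM, JAK2 from 19.7 ± 3.63 to 85.95 ± 7.19 CPM and STAT3 from 86.1 ± 0.977 to 381 ± 19.03 CPM. The STAT5 target genes SOCS2 and CISH, which feed back on cytokine receptors, rose from 8.78 ± 1.35 to 155 ± 24.7 CPM and from 5.26 ± 0.625 to 46.6 ± 7.98 CPM, and PIM1, a survival kinase, from 8.21 ± 0.379 to 918 ± 383 CPM. GAB2, a docking protein of BCR::ABL1, was at 21.6, 14.2 and 21.1 CPM in the vehicle libraries and 381, 176 and 344 CPM in the resistant 1 libraries, higher in each resistant 1 library (3.98, SE 0.35), while the adaptor GRB2 fell from 732 ± 35.1 to 194 ± 3.73 CPM. BCR rose from 30.9 ± 3.12 to 95.05 ± 8.496 CPM and ABL1 from 97.96 ± 4.58 to 261 ± 28.01 CPM; gene-level counts do not show a fusion. Among receptors, FLT3 had 18694 counts in vehicle and 1 in resistant 1, a ratio of 19530-fold (counting interval 3504 to 771300), IL6R fell from 432 ± 57.01 to 1.11 ± 0.344 CPM, INSR, the insulin receptor, fell from 155 ± 4.91 to 4.07 ± 0.936 CPM, and KIT went from 0 counts to 5.84 ± 2.34 CPM, at least 226-fold higher.

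Cholesterol synthesis genes, to which the series title refers, had 10 members of 22 without a call. CYP51A1, the lanosterol demethylase, was at 309.7, 335 and 383 CPM in the vehicle libraries and 166, 192 and 185 CPM in the resistant 1 libraries. Vehicle libraries were all higher, and the log2 fold change was -0.92, with an SE of 0.15 and an adjusted p of 7.17e-05. In the synthesis list, 8 of its 22 tested members rose and 4 fell, with a median log2 fold change of 0.13. EBP, TM7SF2 and MVD were among those that rose. In batch 1, 17 of the 22 rose and 3 fell (median 0.64), beside 6380 and 6100 of all 14505 genes tested there. In the main fit, the effect was more negative in batch 2 than in batch 1 for 13 of the 22 and more positive for 1. Over all 15209 genes these counts were 2773 and 2281. Of the uptake genes, VLDLR fell from 67.7 ± 10.4 to 3.999 ± 1.14 CPM and the lysosomal lipase LIPA from 91.5 ± 3.25 to 0.354 ± 0.0959 CPM. SREBF1, a driver of lipid synthesis, fell from 66.5 ± 5.99 to 48.7 ± 10.1 CPM, a call lost with library totals alone and in 2 of the fits that left out 1 library (adjusted p up to 0.116). APOE, the lipid carrier of macrophages, rose from 0.0646 ± 0.112 to 141 ± 12.5 CPM, and the lysosomal sterol binder NPC2 from 11.8 ± 1.09 to 27.5 ± 7.63 CPM. Of the sensing, uptake, storage and efflux list, 9 of its 31 tested members rose and 17 fell, with a median log2 fold change of -0.39.

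Sphingolipid genes were evenly divided, with 15 members higher and 15 lower of 36 tested and a median log2 fold change of -0.28. The sphingomyelin synthases moved in opposite directions: SGMS1 was at 10.3, 10.6 and 13.3 CPM in the vehicle libraries and 114, 118 and 127 CPM in the resistant 1 libraries, and SGMS2 at 25.98, 33.9 and 33.1 CPM in the vehicle libraries and 0.079, 0.1 and 0.13 CPM in the resistant 1 libraries. SGMS1 was higher and SGMS2 lower in every resistant 1 library. SPTLC2, a chain of the enzyme that starts sphingolipid synthesis, fell from 595 ± 64.6 to 207 ± 21.9 CPM, UGCG, which makes glucosylceramide, rose from 44.5 ± 0.454 to 79.8 ± 12.6 CPM, and the sphingomyelinases SMPD1 and SMPD3 rose from 8.598 ± 0.371 to 15.5 ± 3.79 CPM and from 1.54 ± 0.519 to 3.78 ± 0.604 CPM. B4GALT6, a lactosylceramide synthase, had 1 count in vehicle and 12.9 ± 4.06 CPM in resistant 1, a ratio of 1553-fold (counting interval 278 to 61370).

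Genes that set where phosphatidylserine lies were mostly lower: 8 of its 26 tested members rose and 16 fell, with a median log2 fold change of -0.98. PTDSS1, which makes phosphatidylserine, was at 518, 553 and 512 CPM in the vehicle libraries and 128, 129.8 and 141 CPM in the resistant 1 libraries. All resistant 1 libraries were lower, by 1.99 on the log2 scale (SE 0.11). TMEM30A, the subunit that flippases need to reach the surface, fell from 424 ± 22.1 to 158 ± 13.5 CPM; the flippase ATP8B4 fell from 479.9 ± 18.2 to 1.72 ± 0.142 CPM; and the calcium-activated scramblase ANO6 fell from 245 ± 18.9 to 123 ± 11.4 CPM. PLSCR1 and the flippase ATP11B rose from 26 ± 0.989 to 90.8 ± 8.28 CPM and from 96.3 ± 0.503 to 226 ± 8.17 CPM. The list's summed level was 2567 to 2744 CPM in vehicle and 1257 to 1343 CPM in resistant 1 libraries.

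Carriers and enzymes of surface sugars moved in both directions. CD44, a glycoprotein that carries chondroitin sulfate and binds hyaluronan, was at 684, 922 and 1138 CPM in the vehicle libraries and 84.4, 73.5 and 108 CPM in the resistant 1 libraries, and SRGN, the granule proteoglycan serglycin, at 1157, 1130.4 and 1242 CPM in the vehicle libraries and 213, 196 and 193 CPM in the resistant 1 libraries. Both were lower in each resistant 1 library, with log2 fold changes of -3.37 (SE 0.20) and -2.55 (SE 0.13). CHSY1, which lengthens chondroitin chains, fell from 468 ± 47.7 to 53.4 ± 1.34 CPM, and the heparan sulfate carrier SDC2 fell from 141 ± 11.7 to 1.99 ± 0.285 CPM while SDC3 rose from 13.8 ± 1.78 to 107 ± 20.3 CPM. Sialyltransferases went both ways: ST6GAL1 rose from 30.8 ± 3.68 to 241 ± 19.03 CPM, ST8SIA4, which makes polysialic acid, fell from 93 ± 7.23 to 3.11 ± 0.629 CPM, ST8SIA6 went from 2 counts to 54.99 ± 4.37 CPM, a ratio of 3188-fold (counting interval 882 to 26330), and ST6GALNAC1 from 0 counts to 75.5 ± 3.396 CPM, at least 2915-fold higher. Of this list, 21 of its 52 tested members rose and 23 fell, with a median log2 fold change of -0.24, and its summed level went from 4467 to 5184 to 2547 to 2846 CPM.

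Membrane repair genes moved in both directions. ANXA1, an annexin that binds injured membrane in calcium, was at 10.9, 11.2 and 10.98 CPM in the vehicle libraries and 424, 435 and 335 CPM in the resistant 1 libraries, higher in each resistant 1 library (5.17, SE 0.15), and ANXA3 rose from 0.357 ± 0.185 to 68.2 ± 12.2 CPM. ANXA6 fell from 240.4 ± 19.9 to 26.9 ± 1.62 CPM, S100A10 from 16.7 ± 3.07 to 0.186 ± 0.166 CPM, and the ferlin MYOF from 59.4 ± 7.33 to 0.0853 ± 0.0475 CPM. CAVIN1, which shapes caveolae, had 0 counts in vehicle and 131 ± 18.8 CPM in resistant 1, at least 5041-fold higher. Of the ESCRT machinery, VPS4B fell from 176 ± 7.14 to 34.9 ± 2.17 CPM, and CHMP4B was not called (-0.10, 95% interval -0.32 to 0.12). Over the list, 17 of its 36 tested members rose and 13 fell, with a median log2 fold change of 0.28.

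Genes of the actin cytoskeleton included the 2 largest falls in mean CPM. ACTG1, cytoplasmic gamma actin, was at 5224, 5414 and 5114 CPM in the vehicle libraries and 1380, 1313 and 1582 CPM in the resistant 1 libraries, and ACTB, beta actin, at 4356, 5635 and 4704 CPM in the vehicle libraries and 1616, 2220.2 and 1905 CPM in the resistant 1 libraries. Every resistant 1 library was lower for both, by 1.88 (SE 0.11) and 1.36 (SE 0.14) on the log2 scale. Moesin (MSN), which ties actin to the membrane, fell from 2500 ± 204 to 764 ± 96.3 CPM, and vinculin (VCL), the adhesion adaptor, rose from 104 ± 5.67 to 603 ± 37.3 CPM. The leukocyte integrin ITGA4 fell from 294 ± 25.7 to 7.41 ± 2.62 CPM, and ITGB1 had a log2 fold change of 0.27 (adjusted p 0.0409), a call lost in 4 of the fits that left out 1 library. Among integrins and adaptors, 12 of its 31 tested members rose and 15 fell, with a median log2 fold change of -0.32. In the WAVE complex, which drives branched actin, CYFIP2 was at 25.4, 24.1 and 23.2 CPM in the vehicle libraries and 101, 47.5 and 70.3 CPM in the resistant 1 libraries. Resistant 1 libraries were all higher (1.59, SE 0.28), NCKAP1L, the blood cell subunit, fell from 367 ± 14.8 to 182 ± 7.86 CPM, and the actin regulator WAS was not called (0.10, -0.21 to 0.41); over the complex and its paralogs, 4 of its 12 tested members rose and 5 fell, with a median log2 fold change of -0.06.

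Ranked by the difference in mean CPM, genes among the 12 that rose most were PRAME, ACSM3, FTH1, GLUL, HMGA1, PIM1, FADS1, EIF1, TFRC, CPED1 and PSAP. PRAME, a tumour antigen, was at 0.431, 0.637 and 0.496 CPM in the vehicle libraries and 1408, 1395 and 1524 CPM in the resistant 1 libraries, 11.44 on the log2 scale with an SE of 0.19 and an adjusted p of 1.94e-14. ACSM3, a mitochondrial acyl-CoA synthetase, was at 0.969, 1.01 and 1.18 CPM in the vehicle libraries and 1362, 1184 and 1648 CPM in the resistant 1 libraries. Both genes were near or under 1 CPM in vehicle libraries and among the abundant genes of all 3 resistant 1 libraries. FTH1, the ferritin heavy chain that stores iron, was at 339, 317 and 308 CPM in the vehicle libraries and 1845, 1432 and 1728 CPM in the resistant 1 libraries, with no overlap (2.38, SE 0.12); glutamine synthetase (GLUL) rose from 177 ± 18.6 to 1234 ± 251 CPM; the chromatin protein HMGA1 from 302 ± 24.3 to 1253 ± 69.2 CPM; the fatty acid desaturase FADS1 from 399 ± 35.2 to 1243 ± 292 CPM; the lysosomal saposin precursor PSAP from 190.2 ± 10.5 to 917 ± 132 CPM; CPED1 from 0.471 ± 0.0747 to 744 ± 149.6 CPM; and the start codon factor EIF1 from 626 ± 48.8 to 1409 ± 356 CPM.

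The 12 genes that fell most on that scale were ACTG1, ACTB, PABPC1, HSPA8, GAPDH, NCL, RPS6, RPL7, MSN, CA2, PTMA and OGFRL1. CA2, carbonic anhydrase 2, which hydrates carbon dioxide, was at 2067, 1320.3 and 1577 CPM in the vehicle libraries and 0.452, 0.599 and 0.261 CPM in the resistant 1 libraries. It was abundant in every vehicle library and under 1 CPM in every resistant 1 library (-11.84, SE 0.27). OGFRL1 fell from 1537 ± 104 to 1.44 ± 0.289 CPM. GAPDH, the glycolytic enzyme, was at 3723, 3526 and 3687 CPM in the vehicle libraries and 1196, 1272 and 1101 CPM in the resistant 1 libraries, lower in all 3 resistant 1 libraries by 1.62 on the log2 scale. The chaperone HSPA8 fell from 4481 ± 460 to 1759 ± 309.8 CPM, nucleolin (NCL) from 2864 ± 86.2 to 846 ± 198 CPM, the poly(A) binding protein PABPC1 from 6437 ± 284 to 3712 ± 252 CPM and prothymosin alpha (PTMA) from 2478 ± 211 to 917 ± 170.4 CPM. Actin genes and GAPDH serve as reference genes in many assays, and all 3 fell here also when libraries were scaled by their totals alone.

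Cytosolic ribosomal proteins leaned down by a small amount: 3 of its 78 tested members rose and 41 fell, with a median log2 fold change of -0.33, and 34 were not called. The falls included RPS6 (-1.06), RPL7 (-0.96), RPL30 (-1.29) and RPL37A (-1.03) on the log2 scale. With libraries scaled by their totals alone, 7 rose and 25 fell. RPL4 (-0.24, adjusted p 0.0898) was called with the replicate number as a block (adjusted p 0.0161).

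Abundant genes that were not called and whose 95% interval stayed within 0.5 of 0 on the log2 scale are given next. EEF1A1, the translation elongation factor, was at 18510, 17478 and 18439.9 CPM in the vehicle libraries and 18639, 15226 and 20021 CPM in the resistant 1 libraries, with overlapping groups and an interval of -0.29 to 0.26. HSP90AB1 was at 3601, 3937 and 3791 CPM in the vehicle libraries and 3337, 4015 and 4021 CPM in the resistant 1 libraries, again overlapping (-0.32 to 0.33). RPS18 (-0.37 to 0.33), RPL13A (-0.41 to 0.15), HNRNPA1 (-0.41 to 0.06) and NPM1 (-0.46 to 0.07), the nucleolar protein mutated in OCI-AML3, were of this kind; NPM1 was called without the libraries numbered 2. CANX, the endoplasmic reticulum chaperone calnexin, had a log2 fold change of 0.23 (-0.01 to 0.48) and was called with the replicate number as a block (adjusted p 0.0387).

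Cell cycle genes were spread over both directions: 17 of its 46 tested members rose and 13 fell, with a median log2 fold change of 0.27, and 16 were not called. CCND2, cyclin D2, was at 0.065, 0.159 and 0.652 CPM in the vehicle libraries and 86.05, 124 and 94.6 CPM in the resistant 1 libraries, and CDK6, the kinase it binds, at 476, 682 and 645 CPM in the vehicle libraries and 219, 237 and 207 CPM in the resistant 1 libraries. Cyclin D2 was near 0 in vehicle and higher in each resistant 1 library, while CDK6 was lower in each resistant 1 library, with log2 fold changes of 8.58 (SE 0.40) and -1.44 (SE 0.14). Mitotic genes CDK1, CCNA2, AURKA and TOP2A rose by 1.48, 0.95, 1.10 and 0.84, and the replication helicase gene MCM6 fell by 1.13. The proliferation marker MKI67 was not called (0.06, 95% interval -0.24 to 0.36), and CCNB1 (0.56, adjusted p 0.0808) was called with the replicate number as a block (adjusted p 0.00607). UBE2C, the ubiquitin enzyme that starts mitotic exit, was at 67.7, 78.5 and 64.9 CPM in the vehicle libraries and 0.433, 0.3 and 0.098 CPM in the resistant 1 libraries, near 0 in all 3 resistant 1 libraries and also low in K562 libraries (0.684 ± 0.376 CPM).

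Stress genes leaned upward on the side of NRF2, the oxidant response factor: 19 of its 32 tested members rose and 6 fell, with a median log2 fold change of 0.60. AKR1C1 rose from 4.87 ± 0.573 to 65.8 ± 9.53 CPM, NQO1 from 21.4 ± 1.75 to 64.5 ± 10.4 CPM, GCLM, which makes glutathione precursor, from 47.6 ± 6.15 to 126 ± 9.18 CPM, PGD from 169 ± 10.5 to 495 ± 27.4 CPM and mitochondrial SOD2 from 101 ± 10.4 to 231 ± 21.8 CPM. TXNRD1 missed the threshold (0.27, adjusted p 0.0527) and passed it with the replicate number as a block (adjusted p 0.0129). GPX1, glutathione peroxidase 1, was at 172, 128 and 164 CPM in the vehicle libraries and 0.02, 0.025 and 0.098 CPM in the resistant 1 libraries. It was all but absent from resistant 1 libraries, as from K562 libraries (0.133 ± 0.0714 CPM). In the unfolded protein response list, 12 of its 30 tested members rose and 8 fell, with a median log2 fold change of 0.26: the chaperone HSPA5 was at 648, 648 and 611 CPM in the vehicle libraries and 1191, 889 and 1009 CPM in the resistant 1 libraries and rose by 0.70 on the log2 scale (SE 0.18), ATF5 and DDIT3 rose from 144 ± 49.2 to 597 ± 17.6 CPM and from 13.1 ± 6.66 to 49.9 ± 21.8 CPM, and XBP1, ATF4 and SLC7A5 fell from 367 ± 44.7 to 148 ± 7.29 CPM, from 808 ± 98.2 to 507 ± 24.4 CPM and from 729 ± 49.02 to 296 ± 56.8 CPM. Drug transporters were divided, with 9 of 20 higher and 9 lower (median -0.09); the efflux pump ABCB1 went from 1 count in vehicle to 6.15 ± 1.25 CPM, a ratio of 740.1-fold (counting interval 132 to 29270), ABCC4 rose from 80.2 ± 6.65 to 205 ± 9.19 CPM, and ABCB4, a phospholipid exporter next to ABCB1, fell from 28.04 ± 1.05 to 0.262 ± 0.0914 CPM.

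Markers of other cell types were read as lists. Cancer-testis antigens, germ cell genes that many tumour lines express, were the most one-sided list: 26 of its 27 tested members rose and 0 fell, with a median log2 fold change of 11.39. Their summed level was 6.74 to 10.1 CPM in vehicle and 2529 to 2686 CPM in resistant 1, against 2577 to 2664 CPM in K562 libraries. SSX1, MAGEC2 and PAGE5 had 0 counts in vehicle and 143 ± 13.3, 74.9 ± 3.12 and 73.7 ± 6.24 CPM in resistant 1; SSX, MAGE and PAGE genes have close copies, so counts of single members are uncertain. Of the fibroblast and epithelial list, 8 of its 10 tested members rose and 1 fell, with a median log2 fold change of 8.43: the simple keratins KRT8 and KRT18 rose from 0.0569 ± 0.0535 to 162 ± 14.6 CPM and from 0.304 ± 0.129 to 213 ± 27.4 CPM, EPCAM, an epithelial adhesion protein also carried by red cell precursors, had 0 counts in vehicle and 66.6 ± 1.79 CPM, and VIM, vimentin, was not called (-0.18, 95% interval -0.42 to 0.07). Summed levels of this list were 1255 to 1576 CPM and 1831 to 2099 CPM, most of it vimentin. Of the lymphocyte list, 7 of 12 tested members rose and 5 fell, with a median log2 fold change of 3.16. Its summed level went the other way, from 218.7 to 276.7 CPM in vehicle to 80.13 to 100.7 CPM in resistant 1 libraries. Perforin (PRF1) had 0 counts in vehicle and 40.7 ± 3.07 CPM in resistant 1, and NCAM1, a neural and natural killer cell adhesion protein, fell from 213 ± 26.5 to 0.0435 ± 0.0753 CPM. The part of other cells in any of these results was not tested.

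Some neighbouring genes were silent together. Neighbours were taken in annotation order among genes with a position and at least 1 CPM in one group. Other annotated genes can lie between them and are left out of the gene numbers of a run. By this rule 44 runs of at least 3 genes had in one group under 1% of the other group's CPM, 22 runs higher and 22 lower in resistant 1. The runs held 167 of the 14416 tested genes with a position. By the summed CPM of each run, all 44 had the same direction between K562 and OCI-AML3 parental libraries of batch 1. Genes past 2-fold did so in general: 4794 of the 4876 that were also called between these lines had the same sign. On chromosome 7, the 10 genes from HOXA5 to HOTTIP (chr7:27141052-27207259) held 61685 counts in vehicle and 0 in resistant 1. On chromosome 10, MKX, its antisense gene and ARMC4 (chr10:27672874-27999079) held 57128 and 0, and on chromosome 4 TLR2, RNF175 and SFRP2 held 24892 and 0. On chromosome 19, 5 genes of leukocyte receptors from LILRA1 to FCAR (chr19:54593582-54891420) held 13416 counts in vehicle and 0 in resistant 1, and the 5 genes from SIRPB2 to PDYN on chromosome 20, 4 of them SIRP receptor genes, held 35325 and 24. Homeobox genes and genes of immune receptors were among them. On 9p21 the 5 genes from HACD4 to CDKN2B, with the salvage enzyme MTAP among them, held 35115 counts in vehicle and 0 in resistant 1; the 9p21 list with its flanks had 3 members higher and 11 lower of 16 tested (median -1.25), in which FOCAD fell from 107 ± 17.2 to 4.61 ± 0.939 CPM and CAAP1 from 48.99 ± 2.03 to 22.3 ± 3.86 CPM. Counts do not tell a deleted segment from a silenced one.

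In the other direction, TES, CAV2 and the receptor tyrosine kinase MET on chromosome 7 (chr7:116210506-116798377) held 12 counts in vehicle and 27329 in resistant 1. DLC1, TUSC3 and MICU3 on chromosome 8 held 0 and 15356, and PAX9, SLC25A21, its antisense gene and MIPOL1 on chromosome 14 held 0 and 22871. TFPI, LINC01090, GULP1 and the collagen gene COL3A1 on chromosome 2 held 10 and 36105. The 10 genes from PASD1 to MAGEA6 on the X chromosome, which include MAGEA and CSAG antigens and 3 GABA receptor subunits, held 1 and 32653. ACSM2B, ACSM3 and ACSM1 on chromosome 16 held 121 and 168047. On that chromosome the metallothionein genes MT1E, MT1F and MT1G, which bind zinc and copper, went the opposite way, with 2398 counts in vehicle and 7 in resistant 1; MT1X fell from 9.97 ± 0.829 to 0.333 ± 0.0765 CPM and MT2A from 1.63 ± 0.339 to 0.787 ± 0.295 CPM.

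Whole chromosomes leaned. Chromosome 6 had the highest median log2 fold change, 0.65, with 436 of its 750 tested genes higher (58.1%), and the X chromosome followed at 0.48. Chromosome 8 had the lowest, -0.49, with 274 of 488 genes lower (56.1%), then chromosomes 20 and 17 at -0.29 and -0.27. Between K562 and OCI-AML3 parental libraries the medians were 0.57 for chromosome 6, 0.46 for X, -0.45 for chromosome 8, -0.25 for chromosome 20 and -0.29 for chromosome 17. The HLA genes named above lie on chromosome 6 and fell against that chromosome's lean.

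The same comparison was made in batch 1 with other libraries. There 12480 of 14505 genes tested were called; 9837 genes were called in both batches and 9451 of them (96.1%) moved in the same direction, with a Pearson correlation of the log2 fold changes of 0.961 over 14179 genes, as a description across genes. The size of the effect differed between batches for 5054 of 15209 genes (33.2%), 2281 with a more positive and 2773 with a more negative effect in batch 2. This balance turned with the scaling: 2614 and 2307 with size factors by the median of ratios, and 3210 and 1686 with libraries scaled by their totals alone, where the median difference went from -0.02 to 0.13. LMO2 fell in batch 2 by 1.52, and its effect in batch 1 was -0.35, a difference of -1.20 (SE 0.16, adjusted p 2.48e-05). C3, complement component 3, was among the genes with the most positive difference. On a scale common to all 21 libraries C3 went from 0.226 ± 0.0362 to 18.97 ± 4.62 CPM in batch 2 and from 48.6 ± 1.76 to 11.03 ± 0.175 CPM in batch 1. It rose in one batch and fell in the other (difference 8.53, SE 0.28, adjusted p 1.15e-12).

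Several genes that fell in batch 1 were expressed in the resistant 1 libraries of batch 2. CSF2RB had a log2 fold change of -0.23 in batch 2 and -3.61 in batch 1 (difference 3.36, SE 0.23), and the WAVE subunit CYFIP2 one of 1.59 and -3.55 (difference 5.12, SE 0.32). The bacterial sensor NOD2 differed by 7.37 (SE 0.50). In the other direction, the chaperone HSPA8 differed by -1.77 and CD36 by -2.59. For CA2 the difference of -4.23 (SE 0.42) came with unequal vehicle levels, 1785 ± 414 CPM in batch 2 and 204 ± 6.67 CPM in batch 1, and 131 ± 2.596 CPM in parental cells. Batch here is the sequencing batch of the labels, and it cannot be told apart from other differences between the 2 sets of cultures. Depth also differed, with 14066821 to 21091646 counts in the vehicle and resistant 1 libraries of batch 1.

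Resistant 1 libraries also departed from K562. The difference between resistant 1 and vehicle in batch 2 was set against the difference between K562 and OCI-AML3 parental libraries in batch 1, a comparison chosen after seeing the data. Of 9238 genes called in both, 8531 (92.3%) had the same sign, and the log2 fold changes correlated at 0.942 over 13650 genes. The 2 differences were unequal for 6771 of 15097 genes (44.8%) in an interaction test that crosses the batches, 2795 with a more positive and 3976 with a more negative value in resistant 1 against vehicle. This balance also turned with the scaling, to 3433 and 3044 with size factors by the median of ratios and to 4372 and 2053 with library totals alone. NCF4 was at 6.54 ± 0.3597 CPM in resistant 1 of batch 2 and 0.0791 ± 0.07 CPM in K562 (difference of differences 7.04, SE 0.45). CSF2RB was at 37.6 ± 9.33 and 0.696 ± 0.291 CPM (5.32, SE 0.30), and ITGA2B at 142 ± 2.4 and 13.6 ± 0.579 CPM (4.59, SE 0.38). These 3 genes, all of blood cell membranes or their oxidase, stood above their K562 level. ACSM3, at 1533 ± 254 CPM in resistant 1, was at 85.1 ± 3.79 CPM in K562 (3.37, SE 0.37). The stress factor ATF5 was at 654 ± 18.3 and 43 ± 2.12 CPM, levels that cross the batches. Against its own vehicle libraries ATF5 rose by 2.05 on the log2 scale, and the difference of differences was 1.04 (SE 0.25). That is much less than the gap between the 2 levels.

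Genes with opposite signs in the 2 contrasts included lipid and interferon genes. CYP51A1 fell in resistant 1 (-0.92) and was higher in K562 than in OCI-AML3 parental cells (0.80), as was SREBF1 (-0.45 against 0.81), whose fall was lost under the settings given above. The interferon genes IFIT3 (1.27 against -2.01), OAS3 (1.07 against -1.04) and ISG20 (1.88 against -1.84) rose in resistant 1 and were lower in K562. IFIT2 did so too (0.68 against -2.68), although its rise was lost in 3 of the fits that left out 1 library. HSPA5 (0.70 against -0.24), CYFIP2 (1.59 against -4.94) and the IL-10 receptor IL10RA (2.07 against -0.92) were likewise opposed. In the red cell transcription factor, globin, megakaryocyte and neutrophil lists none of the 14, 19, 12 and 11 genes called in both contrasts was opposed. The same held for other lists, such as membrane repair (26 genes) and cancer-testis antigens (21 genes). Over all genes called in both, 707 of 9238 were opposed, a share at which lists this small can hold none. Among the genes furthest below the line contrast, the kinesin KIF1A fell by 4.35 in resistant 1 while its log2 difference between the lines was 6.60, and the microtubule protein MAP1B differed by -8.64 (SE 0.42).

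**Figure D4:**
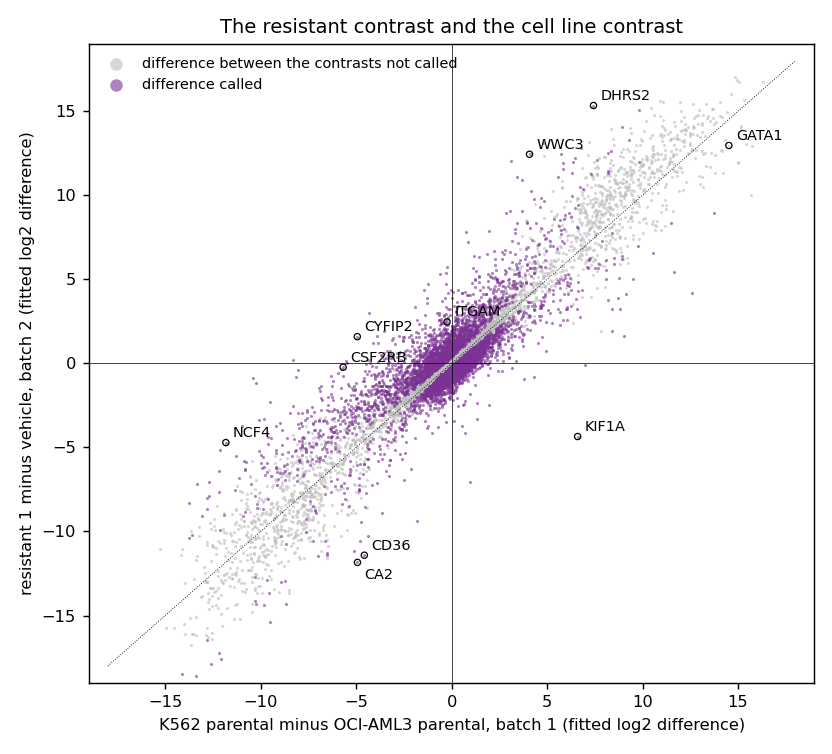
Log2 fold change between K562 and OCI-AML3 parental libraries of batch 1 (x axis) against that between resistant 1 and vehicle libraries of batch 2 (y axis), 1 point a gene, with a dotted line of equality and, in purple, genes whose 2 differences were called unequal. Most points follow the line (correlation 0.942 over 13650 genes), and circled genes such as CYFIP2, NCF4 and KIF1A lie off it. Fitted values of genes with 0 counts in a group are no bound.

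Resistant 2, the other resistant group of batch 2, was close to resistant 1, with correlations of 0.967 to 0.982, and differed from it in 3706 of the 15218 genes (24.4%), 1890 higher and 1816 lower in resistant 2. With libraries scaled by their totals alone, 2611 were higher and 1398 lower, so that the share of calls that were higher went from 51% to 65.1%. COL1A2, a collagen chain of fibroblasts, was at 0.787, 1.82 and 0.359 CPM in resistant 1 and 17.2, 25.7 and 12.3 CPM in resistant 2 libraries, higher in all 3 of the latter (4.19, SE 0.44, adjusted p 3.06e-05). ALDH1L1, a folate enzyme, was at 22.03, 18.4 and 21.2 CPM in resistant 1 and 0.338, 0.494 and 0.405 CPM in resistant 2, and the clotting factor gene F8 at 29.4, 26.05 and 21.7 CPM and 1.44, 1.26 and 0.916 CPM. Both were lower in resistant 2 without overlap (-5.63, SE 0.28, and -4.42, SE 0.20). ARHGAP32, a GTPase-activating protein, was higher in resistant 2 (4.56, SE 0.48), and MYO1G, a myosin of blood cell membranes, and CYP2U1, a fatty acid hydroxylase, were lower (-5.17 and -4.72). CD74, already reduced against vehicle, was at 0, 0.022 and 0 CPM in resistant 2 (-5.66). The calcium exchanger gene SLC8A1 had 0 counts in resistant 1 and 0.106, 0.112 and 0.256 CPM in resistant 2. Counts of this comparison moved with the libraries used: leaving out 1 library gave 1117 to 2505 genes higher and 1206 to 2309 lower, with the fewest in both directions without library 3 of resistant 1.

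The 8 genes of widest spread among the 3 resistant 1 libraries were ARRDC4, CHST3, TXNIP, EGR1, G0S2, RN7SL2, PAPPA and ANKRD33B, and library 2 was their highest or lowest library except for EGR1 and RN7SL2. TXNIP, an inhibitor of thioredoxin that glucose induces, was at 121, 556 and 98.5 CPM in resistant 1, 985, 472 and 717 CPM in vehicle and 409.8, 607 and 171 CPM in resistant 2 libraries. Library 2 was the highest of both resistant groups and the lowest of vehicle, and the log2 fold change of -1.49 was not called (adjusted p 0.126) but was without the libraries numbered 2. ARRDC4, its paralog, had 0 counts in vehicle, 14.7, 99.5 and 12.7 CPM in resistant 1 and 69.3, 136 and 32.5 CPM in resistant 2, again highest in library 2 of each resistant group. CHST3, a chondroitin sulfotransferase, was at 12.7, 1.77 and 17.5 CPM and ANKRD33B at 32.1, 9.94 and 30.3 CPM, lowest in library 2 in both cases. EGR1, an early response factor, was at 107, 66.7 and 19.7 CPM in resistant 1 and had overlapping groups. RN7SL2, a signal recognition particle RNA with near-identical copies, was at 24.2, 15.6 and 5.31 CPM, and PAPPA, a secreted metalloprotease, at 16.6, 5.92 and 24.1 CPM. G0S2, an inhibitor of fat breakdown, was at 4.72, 22.6 and 6.94 CPM against 49.5, 23.6 and 22.1 CPM in vehicle, a fall (-1.48, adjusted p 0.0379). The call was lost in 9 of 18 alternative fits (adjusted p up to 0.136), among them that with the replicate number as a block (adjusted p 0.0892). MAT2A, the methionine adenosyltransferase, fell by 1.72 (adjusted p 0.0107), a call also lost with the block (adjusted p 0.0853). Over genes of at least 10 CPM the median SD of log2 CPM was 0.131 in resistant 1 and 0.103 in vehicle.

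**Figure D5:**
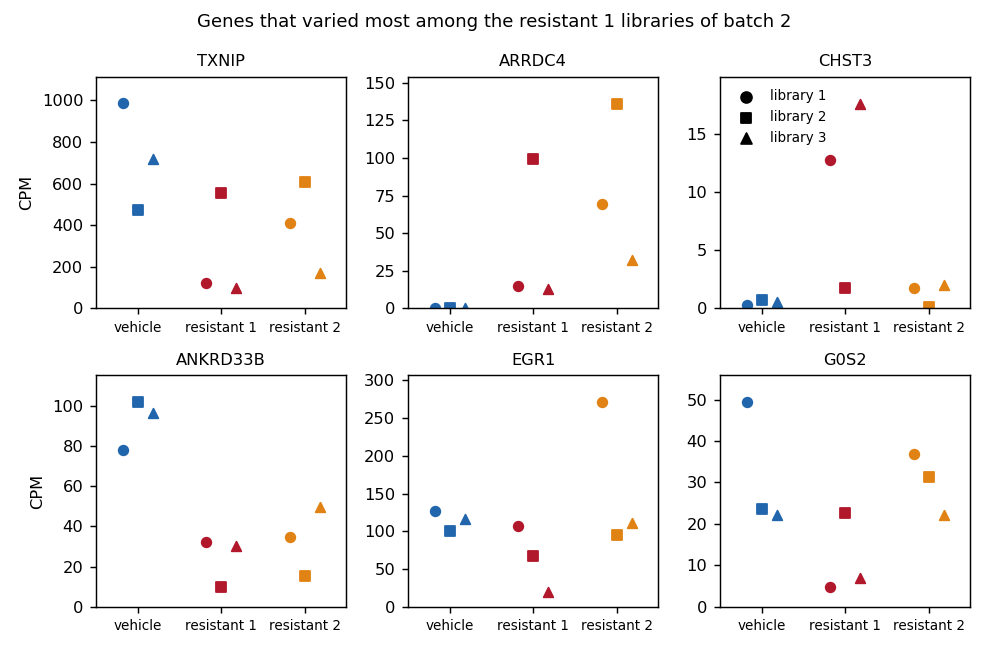
CPM of genes with the widest spread among resistant 1 libraries, in each vehicle, resistant 1 and resistant 2 library of batch 2 (y axis, linear, from 0), with the marker shape giving the library number. Library 2 was highest for TXNIP (556 CPM) and ARRDC4 (99.5 CPM) and lowest for CHST3 (1.77 CPM) and ANKRD33B (9.94 CPM) among the 3 resistant 1 libraries.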

How the data were processed

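Total RNA libraries were strand-specific and poly(A)-selected, per the series' design text. The deposited values are counts of reads per gene, made by the authors by alignment to hg38 with counts named after STAR per the labels, and the submitters' processing notes name DESeq2 1.22.1. Here counts were used as deposited in edgeR 4.0.16 under R 4.3.3: filterByExpr, TMM scaling, a quasi-likelihood fit with robust dispersion over the 9 libraries of batch 2 with group means only, two-sided tests and Benjamini-Hochberg adjustment at 0.05 over all genes tested. A test against a 2-fold change used glmTreat. Batches were compared by an interaction over 12 libraries. Replicates were numbered by the labels. Same-numbered libraries of batch 2 tended to deviate together over 9201 genes (correlations 0.21, 0.28 and 0.22 between resistant 1 and vehicle, 0.33, 0.40 and 0.19 between both resistant groups, 0.11, 0.23 and 0.18 between resistant 2 and vehicle). Pairs of unlike number gave -0.45 to 0.33, the highest for library 3 of resistant 2 with library 1 of resistant 1. In batch 1, same-numbered resistant 1 and vehicle libraries gave 0.39, 0.21 and -0.14. A fit with the number as a block was therefore an alternative, given where it changed a call.

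Total counts were 30719771 to 51262668 a library in batch 2. Levels beside K562 are TMM-scaled CPM over all 21 libraries. Gene positions are GENCODE on GRCh38, matched by symbol for 24575 genes and by older symbol for 754, with 2679 unmatched. The members and gene lists were chosen with earlier results of these data known. Named genes were the 12 highest and 12 lowest by difference in mean CPM, up to 3 highest and 3 lowest called members of each list with further members by role, up to 6 each way for the batch, resistant group and line comparisons, the 8 most abundant genes with an interval within 0.5 of 0, the 8 of widest spread and genes in runs. CCNB1, KIF1A and others outside these were chosen after their values were seen. Steps were tested on simulated counts. Alternatives were other scalings and filters, DESeq2 1.42.0, only the compared groups, non-robust dispersion, the block and leaving out libraries. Y-linked genes and XIST were left out of the text, and some other genes that these choices name are not reported here.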

Additional observations from a re-analysis of the deposited data

Results flagged for a closer look

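The effect of resistant 1 against vehicle differed between batch 2 and batch 1 for 5054 genes by a test of the difference itself. Among genes chosen for this comparison, the log2 difference was positive, a higher effect in batch 2, for C3 (8.53), NOD2 (7.37), CYFIP2 (5.12), CSF2RB (3.36), GAB2 (3.21), ACSM3 (2.05), LYZ (1.76), PRAME (1.34) and FTH1 (0.85). The difference was negative for CA2 (-4.23), CD36 (-2.59), MAT2A (-1.89), HSPA8 (-1.77) and LMO2 (-1.20). Other genes named in the report also differed: TLR2 (-5.86), CTSG (-4.94) and HOXA13 (-5.17) had 0 counts in resistant 1 of batch 2, so that these fitted values depend on the prior count, and the call for HOXA13 was lost without library 1 of resistant 1 of batch 1. HMGA1 was one of the genes without a call (-0.06, SE 0.11, adjusted p 0.778). Sequencing batch, depth and culture differ together between these sets of libraries and cannot be told apart.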

How the results depend on the processing

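Counts of genes higher and lower in resistant 1 stayed within 1.5 times of the reported ones under every alternative run. Leaving out 1 library gave 5820 to 6357 genes higher and 5113 to 5696 lower, 3421 to 3659 and 2506 to 2736 past 2-fold, and 6194 to 6563 and 5985 to 6287 in batch 1. With the replicate block, 6247 genes rose and 5611 fell, 3539 and 2664 past 2-fold, and among named genes it changed calls only for those marked in the text. DESeq2 called 6570 and 5715. Sets of counts from 3 comparisons moved by more than 1.5 times. The difference between batches, with libraries scaled by their totals alone, gave 1686 genes with a more negative effect, and leaving out 1 library gave 1837 to 2689 and 2350 to 3314. Resistant 2 against resistant 1 gave 1117 to 2505 higher and 1206 to 2309 lower: 1209 higher without library 1 of resistant 1, 1117 higher and 1206 lower without its library 3, and 1157 and 1175 higher without libraries 1 and 3 of resistant 2. The comparison with the cell lines under library totals alone gave 4372 higher and 2053 lower, and 2484 to 3024 and 3525 to 4252 without 1 library. The cause was not tested. Of 327 named gene results none reversed, and 27 crossed the threshold under some alternative, among them B2M, CALR, ITGB1 and RUNX1. Depth limits genes with 0 counts to the bounds given.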
